A study of Mus musculus with 12 samples.

Results

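RNA from whole bone marrow of B6 mice was compared to ask whether the effect of DEIX (deinoxanthin, a bacterial carotenoid named in the series title) depended on irradiation. For each gene, the difference between DEIX and no DEIX in irradiated mice was set against the same difference in unirradiated mice. All 12 libraries entered, and all 21853 protein-coding genes of the table were members. Of these, 10994 reached 1 FPKM in at least 3 libraries and were tested, and 10859 were not. FPKM scales the fragments of a gene to the length of its transcript and to the mapped fragments of the library.

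The study had 4 groups of 3 libraries, all taken at 14 days. Control mice were unirradiated. TBI mice received total body irradiation with 5 Gy of gamma rays at 0.66 Gy/min, and then 100 µL of olive oil by gavage as the vehicle. TBI+DEIX mice received the same irradiation and 25 mg/kg DEIX by mouth once a day for 14 days. DEIX mice were unirradiated and received 25 mg/kg DEIX once a day for 14 days. Neither a gavage nor a vehicle is stated for the control mice, and no route is stated for the DEIX mice. Dosing itself and DEIX thus cannot be told apart in the unirradiated mice. The interaction includes this comparison, so it cannot be told apart from an effect of dosing either. Between TBI and control, irradiation and gavage likewise cannot be told apart. The age and sex of the mice, and whether each library came from a separate animal, are not stated, so p-values measure only the spread between these libraries.

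Bone marrow holds the stem cells, the dividing precursors of red cells, granulocytes, monocytes and B cells, and resident macrophages that feed red cell precursors and clear their nuclei. Irradiation kills dividing precursors and lymphocytes, and the marrow refills from surviving stem cells over the following weeks. Type I interferon is a cytokine that switches on antiviral and antigen presentation genes through transcription factors of the STAT family, and many of these genes keep a basal level in unchallenged marrow. Carotenoids are pigments known as antioxidants.

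TBI+DEIX replicate 1 stood apart from the other libraries. Its first principal component was 52.5, against -31.5 to 21 in the other 11 libraries, and this component held 42.1% of the variance. Within groups, the SD of log2(FPKM + 1), as a root mean square over genes, was 0.140 for control, 0.226 for TBI, 0.236 for DEIX and 0.418 for TBI+DEIX. The total number of reads is unknown, the FPKM of a library summed to between 493683 and 848843, and between 10359 and 10832 genes per library reached 1 FPKM. Markers of erythroid cells (29 of 30 listed genes tested), B cells (26 of 26) and promyelocytes (15 of 16) were present as in marrow, while 9 of 22 stromal and endothelial genes were tested. Interactions whose call changed without TBI+DEIX replicate 1 are given with and without it.

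The interaction is the DEIX effect in irradiated mice (TBI+DEIX minus TBI) minus the DEIX effect in unirradiated mice (DEIX minus control), on the log2(FPKM + 1) scale, which understates changes of low genes. It was fitted for all tested genes with limma, and genes with a Benjamini-Hochberg adjusted p under 0.05 are termed called. Adjusted p values below come from this fit unless a left-out library or an alternative is named. The interaction was called for 22 genes, 0.2% of those tested, of which 21 were positive (0.191%) and 1, Fn1, was negative (0.0091%). A positive value means that DEIX raised the gene more, or lowered it less, in irradiated than in unirradiated mice. At an unadjusted p under 0.05 there were 825 genes (7.5%), 458 positive (4.17%) and 367 negative (3.34%). Of the 21 positive genes, 8 reached 1 FPKM in under 3 libraries outside control and so were tested because control was high. These were Srpk3, Col5a3, Nuak1, Rapgefl1 and Klhl14, in no other library, and Il2ra, Myo1e and Il4i1. With the other 3 groups near 0 the sign of the interaction was fixed, and the 8 are given as a description. The sign was fixed for Tgtp2 as well, as given below. The count of called genes rested on single libraries. It was 6, 11 and 5 without control replicates 1, 2 and 3, 13, 4 and 18 without TBI replicates 1, 2 and 3, 331, 13 and 20 without TBI+DEIX replicates 1, 2 and 3, and 8, 16 and 11 without DEIX replicates 1, 2 and 3.

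Of the 22 called genes, 13 are introduced here and the others below. The complement C1q genes and the macrophage genes Cd5l and Spic were lower with DEIX in unirradiated mice and not lower with DEIX in irradiated mice. Fn1, the gene of fibronectin, did the opposite. Genes linked to interferon and antigen presentation, among them H2-Q6, H2-Q4, Tgtp2, Oas1c and Socs1, and cytokine receptor genes were high in control and lower in each of the other groups. In bulk marrow, fewer cells of a type and less RNA per cell cannot be told apart.

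The separate effects in these genes are terms of the interaction that chose them, so they are given as a description. The DEIX effect in unirradiated mice was called in all 22, and every DEIX library lay below every control library in 21 of them. The DEIX effect in irradiated mice was called in 5 of the 22, higher for C1qa, C1qb, Ctla2a and Socs1 (4.69% of all genes) and lower for Fn1 (3.41%). Without TBI replicate 3, the calls for C1qa, C1qb and Fn1 in irradiated mice were lost, and 5 of all tested genes were called. Irradiation with vehicle was called in 19 of the 22 (3.99% of all genes), a share that the choice of genes by the same TBI and control libraries also raises. Over all genes, the DEIX effect was called for 891 in irradiated mice (8.1%), 57.9% of them higher, and for 796 in unirradiated mice (7.24%), 62.4% of them higher (4.52% of all genes). With each library scaled to the same FPKM sum, the calls were 34.4% and 19.1% higher, and the median of all genes moved to -0.12 in both effects. The same scaling gave 28 calls in the interaction, 82.1% of them positive against 95.5%, and left its median at -0.00.

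Across the 10994 genes, the DEIX effects with and without irradiation had a Pearson r of 0.54. These effects share no library, and genes are not independent replicates. The SD across genes was 0.40 for the effect in irradiated mice, 0.41 for that in unirradiated mice and 0.39 for the interaction. The interaction had a median of -0.02 over all genes and reached an absolute value of 1 in 325 genes (2.96%), 193 positive and 132 negative. Its median SE was 0.21.

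**Figure D1:**
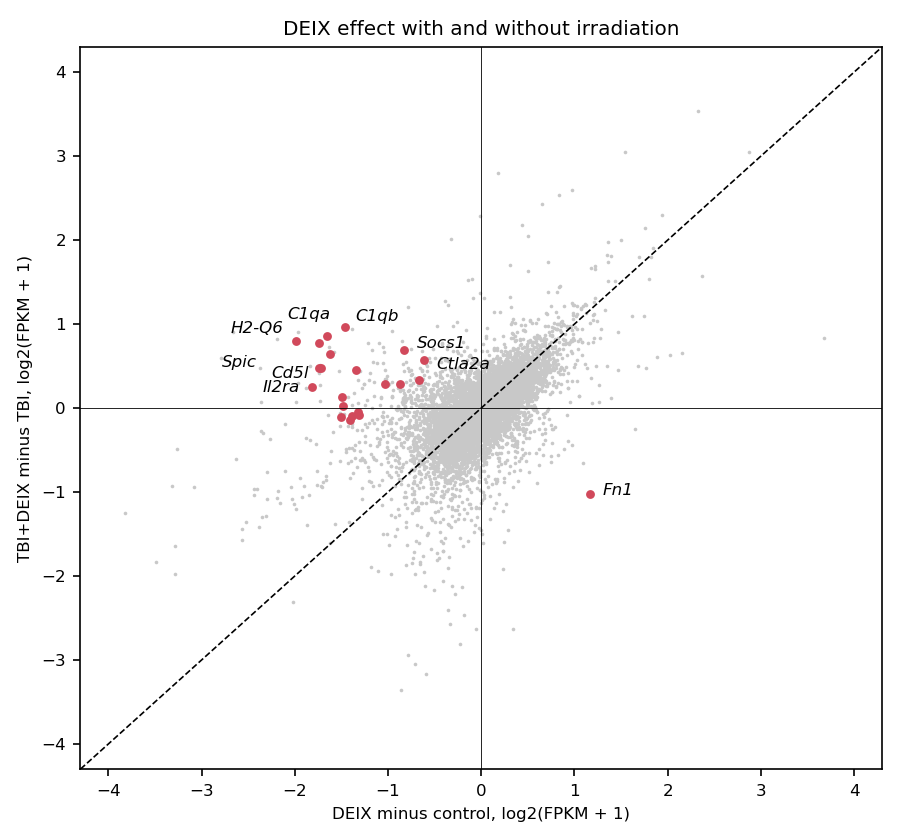
The DEIX effect in unirradiated mice (x axis, DEIX minus control) against that in irradiated mice (y axis, TBI+DEIX minus TBI), both as differences of mean log2(FPKM + 1). Each grey point is 1 of 10994 genes, red points are the 22 called genes, and the dashed line marks equal effects; Fn1 lies at the lower right, and the other 21 red points lie left of the dashed line, where DEIX lowered the gene in unirradiated mice.

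C1qa, C1qb and C1qc encode the A, B and C chains of C1q, the recognition molecule of the classical complement pathway, which tissue macrophages make. C1qb (ENSMUSG00000036905.8, chromosome 4, 136880129 to 136886187, minus strand) was at 37.3, 36.7 and 31.9 FPKM in the control libraries and at 13, 10.6 and 12.9 FPKM in the DEIX libraries. In irradiated mice it was at 21.5, 20.1 and 12.8 FPKM with vehicle and at 27.1, 45.0 and 36.5 FPKM with DEIX. The DEIX libraries were the lowest apart from 1 TBI library that lay within their range, and each TBI+DEIX library was above each TBI library. DEIX thus went with a fall of 1.46 on the log2 scale without irradiation (SE 0.20, adjusted p = 0.00447) and with a rise of 0.96 (SE 0.20, adjusted p = 0.023) with it. The call of this rise was lost without TBI replicate 3, where 5 of all tested genes were called in irradiated mice. The interaction was 2.43 (SE 0.29, adjusted p = 0.0142). It was called in all 26 alternatives run, with adjusted p from 2.06e-05 to 0.0494.

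C1qa (ENSMUSG00000036887.5, chromosome 4, 136895917 to 136898803, minus strand) averaged 38.2 ± 2.13 FPKM in control and 11.5 ± 1.98 in DEIX, and 17.5 ± 4.03 in TBI and 33.3 ± 10.8 in TBI+DEIX (SD, n = 3). Single TBI+DEIX libraries were at 22.3, 43.9 and 33.7 FPKM, all above the highest TBI library at 20.3 FPKM and overlapping the control range of 36.1 to 40.4 FPKM. Its interaction was 2.52 (SE 0.33, adjusted p = 0.0142), and 3 of the fits that left out a library, those without control replicate 1 or 3 and without TBI replicate 2, did not keep the call (range of adjusted p from 2.06e-05 to 0.0633). C1qc (ENSMUSG00000036896.5, chromosome 4, 136889804 to 136893065, minus strand) was at 25.6, 28.3 and 23.6 FPKM in control, 15.3, 13.8 and 9.79 FPKM in TBI, 14.2, 28.1 and 21.5 FPKM in TBI+DEIX and 7.81, 6.32 and 9.10 FPKM in DEIX. TBI+DEIX overlapped TBI here, because replicate 1 lay within the TBI range. The interaction was 2.27 (SE 0.32, adjusted p = 0.016), the DEIX effect in irradiated mice was not called at 0.64 (adjusted p = 0.098), and the call was lost in 6 of the 12 fits that left out a library (adjusted p over its alternatives from 2.26e-05 to 0.0737).

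If the separate effects of TBI and DEIX had added up on the log2 scale, C1qb would have been at 5.77 FPKM in TBI+DEIX, and the level on that scale was 35.5. The same sum gave 4.77 FPKM for C1qa, against 32.1 seen, and 3.45 FPKM for C1qc, against 20.5 seen. In group means, each of the 3 C1q genes was thus lower after TBI than in control, lowest after DEIX and closest to control after both.

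Cd5l and Spic were also lowest in DEIX. Cd5l (ENSMUSG00000015854.7, chromosome 3, 87357881 to 87371073, plus strand) encodes a secreted protein of tissue macrophages that limits their apoptosis. It was at 15.9, 11.5 and 7.86 FPKM in control, 9, 7.78 and 6.39 FPKM in TBI, 9.68, 12.8 and 11 FPKM in TBI+DEIX and 2.36, 3.17 and 2.75 FPKM in DEIX. The DEIX libraries were all lower than every other library, and the TBI+DEIX libraries all lay above the TBI libraries and within the control range. The interaction was 2.2 (SE 0.30, adjusted p = 0.016). The same interaction, read as a difference of irradiation effects, had terms of -0.51 (adjusted p = 0.231) with vehicle and 1.69 (adjusted p = 0.00469) between TBI+DEIX and DEIX.

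Spic (ENSMUSG00000004359.16, chromosome 10, 88674772 to 88685015, minus strand) encodes a transcription factor needed by the iron-recycling macrophages of spleen and marrow. Its levels were 7.78, 8.23 and 5.72 FPKM in control, 3.64, 3.99 and 3.30 FPKM in TBI, 9.89, 8.26 and 3.90 FPKM in TBI+DEIX and 0.776, 1.76 and 2.01 FPKM in DEIX. DEIX libraries were again the lowest, while 1 TBI+DEIX library lay among the TBI libraries. The interaction was 2.51 (SE 0.40, adjusted p = 0.0338), a call that 15 of 25 alternatives did not keep (adjusted p from 0.000315 to 0.147). Cd5l lost its call in 5 of 26 (adjusted p from 6.91e-05 to 0.0812).

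Fn1 (ENSMUSG00000026193.15, chromosome 1, 71585520 to 71653200, minus strand) encodes fibronectin, a glycoprotein of the extracellular matrix. It was at 106, 88.8 and 81.0 FPKM in control and 160.1, 253 and 217 FPKM in DEIX, and at 124, 106 and 85.4 FPKM in TBI and 40.8, 58.6 and 53.8 FPKM in TBI+DEIX. All DEIX libraries lay above, and all TBI+DEIX libraries below, every other library. DEIX went with a rise of 1.17 (SE 0.20, adjusted p = 0.00941) in unirradiated mice and a fall of 1.03 (SE 0.20, adjusted p = 0.0199) in irradiated mice. The call of this fall was lost without TBI replicate 3 or TBI+DEIX replicate 3 and with array weights per group. The interaction was -2.20 (SE 0.29, adjusted p = 0.0142). The call was not kept without control replicate 3 or without TBI replicate 2 (range of adjusted p from 5.81e-05 to 0.0583).

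**Figure D2:**
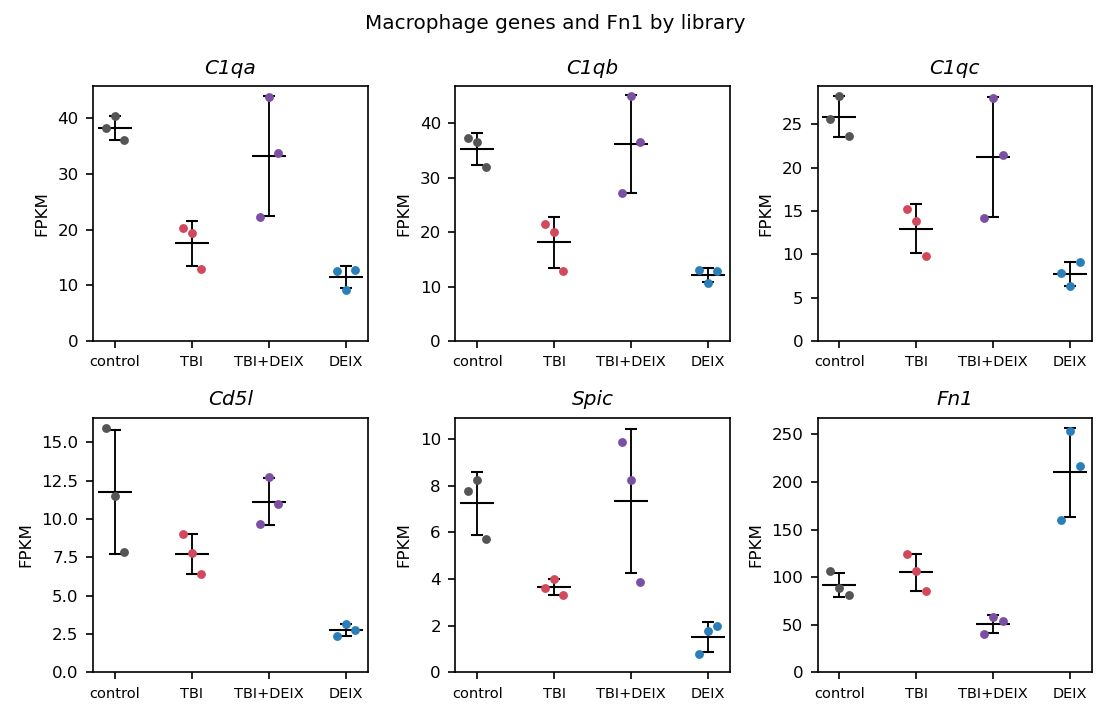
FPKM of C1qa, C1qb, C1qc, Cd5l, Spic and Fn1 by group on linear axes that start at 0. Points are libraries, horizontal marks are means and bars are SD over 3 libraries; DEIX is the lowest group for the first 5 genes and the highest for Fn1, where TBI+DEIX is the lowest.

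With all libraries, no other gene passed the test with a negative interaction. Without TBI+DEIX replicate 1, 49 genes passed on that side, Fn1 among them. Among the genes with the smallest p of the rest, at a mean of at least 5 FPKM in the highest group, were Ms4a8a, F13a1, Ccl9, Scarb1, Ass1, Vcan, Dusp3, Pros1, Tmem150b and Tiam1, with adjusted p from 0.112 to 0.132. Without TBI+DEIX replicate 1, 9 of these 10 were called, with values of -1.09 for Ms4a8a, -1.58 for F13a1, -0.96 for Ccl9, -0.67 for Scarb1, -0.91 for Ass1, -2.98 for Vcan, -0.92 for Dusp3, -0.86 for Tmem150b and -0.67 for Tiam1 (adjusted p from 0.0116 to 0.0442), and Pros1 was not, at -1.26 (adjusted p = 0.0523). F13a1, the A chain of coagulation factor XIII, which monocytes express, was at 129.5, 114 and 114 FPKM in control, 167, 117 and 90.8 FPKM in TBI, 111, 69.8 and 90.0 FPKM in TBI+DEIX and 249, 233 and 223 FPKM in DEIX. The DEIX libraries stood above all others, and the TBI+DEIX libraries lay below all control libraries and overlapped those of TBI. Its interaction was -1.42 (SE 0.30, adjusted p = 0.115).

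Ms4a8a, a membrane protein of the MS4A family, was at 18.6, 17.5 and 16 FPKM in DEIX, against 4.78 to 9.55 FPKM in the other 9 libraries, with an interaction of -1.27 (SE 0.26, adjusted p = 0.112). Ccl9, a chemokine of myeloid cells, was at 91.6, 94.6 and 86.8 FPKM in DEIX, against 26.6 to 56.1 FPKM elsewhere, with an interaction of -1.17 (SE 0.25, adjusted p = 0.115). In both, the DEIX libraries did not overlap any other group. Vcan, a proteoglycan of classical monocytes, was at 1.84, 2.08 and 1.13 FPKM in control, 23, 12.2 and 6.20 FPKM in TBI, 27.4, 12.6 and 32.0 FPKM in TBI+DEIX and 46.0, 32.8 and 23.4 FPKM in DEIX. It was low in control alone, and its interaction was -2.84 (SE 0.61, adjusted p = 0.121).

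Scarb1 and Ass1 were not called with all libraries either. Scarb1 encodes a scavenger receptor that takes up cholesterol from high-density lipoprotein and also carotenoids. It was at 31.2, 29.8 and 29.6 FPKM in control, 39.0, 35.2 and 39.5 FPKM in TBI, 33.9, 33.1 and 35.8 FPKM in TBI+DEIX and 51.3, 42.3 and 39.8 FPKM in DEIX. Its DEIX effect was 0.54 (adjusted p = 0.014) in unirradiated mice, and its interaction was -0.68 (SE 0.14, adjusted p = 0.115). Ass1, an enzyme of arginine synthesis, was at 7.92, 10.4 and 10.8 FPKM in TBI+DEIX, against 15.8 to 28.3 FPKM in the other 9 libraries. TBI+DEIX thus stood below every other group, with a DEIX effect of -0.87 (adjusted p = 0.0172) in irradiated mice and an interaction of -1.04 (SE 0.22, adjusted p = 0.115). The call in irradiated mice was lost without TBI replicate 3 and with array weights per group, where no gene was called lower.

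The list of monocyte and macrophage genes held genes of both patterns. Of its 25 tested members, the interaction was called positive for 3 (C1qa, C1qb and C1qc) and negative for 1 (Fn1), 8 values were positive and 17 negative, and 6 and 9 reached an unadjusted p under 0.05. The median of the list was -0.74, against -0.02 over all genes, and 0.08 without TBI+DEIX replicate 1. Its most abundant members were Lyz2, Ly6c2 and S100a4, none of them called, with interactions of -0.90 (SE 1.11), -0.06 (SE 0.59) and -1.33 (SE 1.07). Without TBI+DEIX replicate 1 these were 0.31, 0.54 and -0.12, so that Lyz2 and Ly6c2 changed sign, and 4 members were then called negative. The summed level of the 25 genes was 9264 to 10030 FPKM in control, 9128 to 11020 in TBI, 2224 to 15020 in TBI+DEIX and 9997 to 12540 in DEIX, and no member was listed at 0 in any library. The part of this shift in the results for single genes was not tested.

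Among the called genes, H2-Q6 had the largest positive interaction. H2-Q6 (ENSMUSG00000073409.12, chromosome 17, 35424850 to 35430055, plus strand) and H2-Q4 (ENSMUSG00000035929.11, chromosome 17, 35379617 to 35385290, plus strand) are nonclassical class I genes of the mouse major histocompatibility complex. Genes of this cluster resemble each other, and the counting could split their reads, so both are uncertain. H2-Q6 was at 53.7, 75.2 and 54.6 FPKM in control, 4.42, 8.44 and 7.74 FPKM in TBI, 9.25, 12.1 and 16.6 FPKM in TBI+DEIX and 13.5, 16.4 and 13.7 FPKM in DEIX. Control stood far above all other groups, and every TBI+DEIX library was above every TBI library. The DEIX effect was -1.99 (SE 0.24, adjusted p = 0.00286) without irradiation and 0.80 (SE 0.24, adjusted p = 0.0621), not called, with it. The interaction was 2.79 (SE 0.34, adjusted p = 0.0142) and was called in all 26 alternatives.

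H2-Q4 was at 66.7, 87.0 and 69.0 FPKM in control, 18, 28.4 and 29.0 FPKM in TBI, 28.6, 31.9 and 43.0 FPKM in TBI+DEIX and 28.1, 30.1 and 27.5 FPKM in DEIX. Only control separated from the rest. Its interaction was 1.79 (SE 0.27, adjusted p = 0.0268), and 9 of 26 alternatives did not keep the call (adjusted p from 0.00023 to 0.099).

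Tgtp2, Oas1c and Socs1 are known as genes that interferons induce. Tgtp2 (ENSMUSG00000078921.3, chromosome 11, 49057194 to 49064206, minus strand) encodes a GTPase of cell-autonomous immunity and has the close copy Tgtp1, so its reads may be split. Oas1c (ENSMUSG00000001166.17, chromosome 5, 120800194 to 120812514, minus strand) belongs to the Oas1 family of antiviral proteins, whose members also resemble each other. Socs1 (ENSMUSG00000038037.5, chromosome 16, 10782240 to 10785536, minus strand) encodes an inhibitor of JAK kinases that ends cytokine signals. Of the 22 called genes, 19 had a promoter window in the RefSeq table for GRCm38.p6, and these 3 held the letters GAAANNGAA on either strand in the 250 bases before the start. Of all 32851 windows of this length, 2342 (7.13%) held them. GAAANNGAA lies in the core of the interferon-stimulated response element, and matches that overlap were counted separately. Such a match is a description, not a site.

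The windows of these 3 genes, chosen after the matches were known, are shown because they hold these letters, in capitals, with the last base next to the start. They are chr5:120812515-120812764 (minus strand) for Oas1c, with 2 overlapping matches on the opposite strand from 99 to 113 bases before the start, chr16:10785537-10785786 (minus strand) for Socs1, with 2 overlapping matches from 69 to 83 bases before the start, and chr11:49064213-49064462 (minus strand) for Tgtp2, with 1 match from 62 to 70 bases before the start.
Oas1c: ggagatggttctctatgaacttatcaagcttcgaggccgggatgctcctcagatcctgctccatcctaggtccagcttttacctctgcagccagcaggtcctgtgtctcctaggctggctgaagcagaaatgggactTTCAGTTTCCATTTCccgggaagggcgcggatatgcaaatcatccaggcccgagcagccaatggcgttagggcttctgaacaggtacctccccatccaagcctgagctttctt
Socs1: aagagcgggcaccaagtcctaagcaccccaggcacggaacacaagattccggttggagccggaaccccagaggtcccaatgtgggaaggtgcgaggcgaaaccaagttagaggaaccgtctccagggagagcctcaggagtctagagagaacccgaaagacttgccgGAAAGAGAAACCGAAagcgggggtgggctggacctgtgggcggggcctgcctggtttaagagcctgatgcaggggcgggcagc
Tgtp2: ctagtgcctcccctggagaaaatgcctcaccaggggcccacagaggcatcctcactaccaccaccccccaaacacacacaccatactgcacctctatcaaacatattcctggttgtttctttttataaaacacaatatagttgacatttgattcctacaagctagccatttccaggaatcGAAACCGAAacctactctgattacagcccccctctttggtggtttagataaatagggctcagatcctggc
The letters AGATAA, bound by GATA factors, were in the windows of 2 called genes, Ctla2a and Tgtp2, and in 3281 of all windows (9.99%), and the motifs do not overlap in Tgtp2.

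Socs1 was at 3.30, 3.49 and 4.76 FPKM in control, 1.22, 1.72 and 1.47 FPKM in TBI, 2.90, 3.11 and 2.89 FPKM in TBI+DEIX and 2.05, 1.70 and 1.42 FPKM in DEIX. Every TBI+DEIX library was above every TBI and every DEIX library and below every control library. DEIX went with a fall of 0.83 (SE 0.14, adjusted p = 0.00819) without irradiation and a rise of 0.69 (SE 0.14, adjusted p = 0.0203) with it. The interaction was 1.52 (SE 0.20, adjusted p = 0.0142) and was called in all 25 alternatives that tested the gene.

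Tgtp2 was at 9.98, 12.6 and 7.78 FPKM in control, 1.41, 2.61 and 2.29 FPKM in TBI, 1.97, 4.34 and 3.82 FPKM in TBI+DEIX and 1.84, 2.33 and 2.72 FPKM in DEIX. Control was the highest and the other groups overlapped. Its interaction was 2.21 (SE 0.34, adjusted p = 0.0285), lost in 13 of 25 alternatives (adjusted p from 9.29e-05 to 0.115). Added on the log2 scale, its separate effects of TBI and DEIX gave -0.0855 FPKM in TBI+DEIX. Its positive sign was thus fixed by the low level of TBI and DEIX, and the value is a description. Oas1c was at 6.10, 5.51 and 5.82 FPKM in control, 2.97, 2.97 and 3.05 FPKM in TBI, 3.29, 3.64 and 4.86 FPKM in TBI+DEIX and 1.87, 2.58 and 2.57 FPKM in DEIX. TBI+DEIX lay between control and the other groups without overlap, and the interaction was 1.33 (SE 0.19, adjusted p = 0.016), lost in 6 of 25 alternatives (adjusted p from 0.000158 to 0.0737).

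Lgals3bp (ENSMUSG00000033880.11, chromosome 11, 118392751 to 118402092, minus strand), which encodes a secreted partner of galectin-3, was at 91.6, 104 and 93.9 FPKM in control, 31.4, 38.9 and 36.3 FPKM in TBI, 32.4, 34.3 and 53.3 FPKM in TBI+DEIX and 25.9, 36.9 and 39.2 FPKM in DEIX. Control alone stood apart. The interaction of 1.63 (SE 0.28, adjusted p = 0.0488) was lost in 15 of 26 alternatives (adjusted p from 0.000451 to 0.167).

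**Figure D3:**
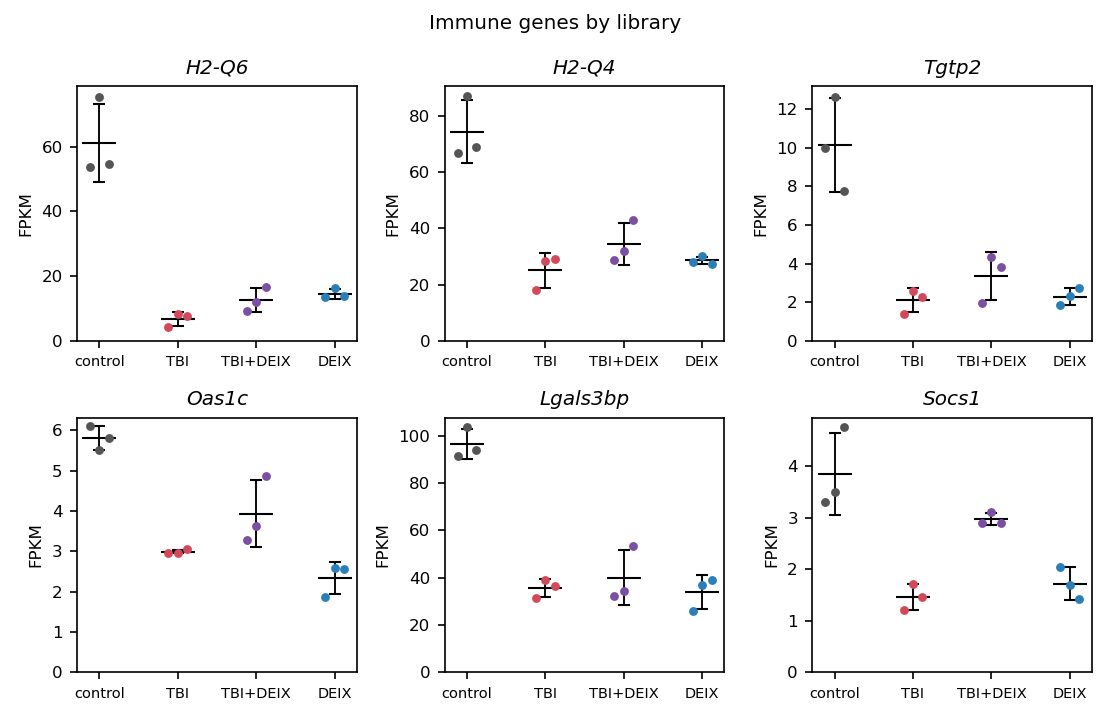
FPKM of H2-Q6, H2-Q4, Tgtp2, Oas1c, Lgals3bp and Socs1 by group on linear axes that start at 0. Points are libraries, horizontal marks are means and bars are SD over 3 libraries; control is the highest group for all 6 genes, and TBI+DEIX lies above both TBI and DEIX in every library for Oas1c and Socs1.

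Il21r and Il2ra, which encode receptors of common gamma chain cytokines that act on lymphocytes, were lower in every library of the other 3 groups than in any control library. Il21r (ENSMUSG00000030745.9, chromosome 7, 125603429 to 125633570, plus strand) encodes the receptor for interleukin 21 and was at 5.97, 6.03 and 7.42 FPKM in control, 2.08, 2.28 and 2.28 FPKM in TBI, 2.90, 2.95 and 3.29 FPKM in TBI+DEIX and 3.84, 3.46 and 3.81 FPKM in DEIX. The groups did not overlap, with TBI the lowest, then TBI+DEIX, then DEIX. Its interaction was 1.00 (SE 0.15, adjusted p = 0.0213), lost in 14 of 25 alternatives (adjusted p from 0.000315 to 0.186). Il2ra encodes the alpha chain of the interleukin 2 receptor and was at 4.49, 3.87 and 4.23 FPKM in control, 0.208, 0.584 and 0.425 FPKM in TBI, 0.241, 0.809 and 1.05 FPKM in TBI+DEIX and 0.392, 0.506 and 0.522 FPKM in DEIX. The groups other than control overlapped near the floor, and the interaction of 2.07 (SE 0.25, adjusted p = 0.0142) was lost at a pseudocount of 0.1 alone (adjusted p 0.0877).

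Ctla2a (ENSMUSG00000044258.10, chromosome 13, 60934155 to 60936625, minus strand), related to the propeptide of cathepsin proteases, was at 8.11, 7.94 and 8.07 FPKM in control, 2.31, 3.67 and 2.79 FPKM in TBI, 4.51, 4.95 and 4.90 FPKM in TBI+DEIX and 4.42, 6.09 and 4.38 FPKM in DEIX. TBI was the lowest group, and TBI+DEIX lay within the DEIX range. DEIX went with a fall of 0.61 (SE 0.14, adjusted p = 0.0305) without irradiation and a rise of 0.57 (SE 0.14, adjusted p = 0.036) with it. The interaction was 1.19 (SE 0.20, adjusted p = 0.0496), the highest adjusted p among the called genes, and 18 of 26 alternatives lost it (adjusted p from 0.00092 to 0.186).

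The other called genes were low throughout and were chosen for naming after their values were seen, as were Il2ra and Socs1, since they lie under the level of 5 FPKM set for named genes. Rapgefl1, Srpk3, Myo1e, Klhl14, Col5a3, Il4i1 and Nuak1, like Il2ra and Socs1, had under 5 FPKM in their highest group, which was control. Of these 7, Il4i1, an amino acid oxidase of antigen-presenting cells, was at 4.64, 3.77 and 5.38 FPKM in control, 0.325, 0.477 and 0.468 FPKM in TBI, 0.118, 0.397 and 0.516 FPKM in TBI+DEIX and 0.892, 1.16 and 1.33 FPKM in DEIX. Srpk3, a kinase of splicing factors, was at 3.94, 2.98 and 4.26 FPKM in control and between 0.0863 and 0.845 FPKM in the other 9 libraries. Klhl14, an adaptor of ubiquitin ligases that B cells express, was at 2.00, 1.68 and 2.15 FPKM in control and between 0 and 0.274 FPKM elsewhere. Control lay above all other libraries in each of the 3, and for Il4i1 and Srpk3 the DEIX libraries also lay above those of TBI and TBI+DEIX.

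Col5a3, a collagen chain, fell from 1.84 to 2.94 FPKM in control to 0.168 to 0.246 in DEIX. TBI (0.23 to 0.571) and TBI+DEIX (0.216 to 0.453) were also below control, and overlapped the DEIX range but reached higher. Rapgefl1, Myo1e and Nuak1 had 2.08 to 2.7 FPKM in control and at most 1.11 FPKM in any other library. The interactions of these 7 genes ran from 1.16 for Myo1e to 1.5 for Srpk3, with adjusted p from 0.0142 to 0.0442, and each lost its call in 4 to 16 of 25 alternatives.

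Several of these genes were near 0 after TBI with vehicle. For 9 of the 22 called genes, the separate effects of TBI and DEIX, added on the log2(FPKM + 1) scale, gave a level below 0 FPKM in TBI+DEIX. These 9 were Tgtp2 and the genes that were tested because control was high. On the linear scale the sum was below 0 in 21 of the 22, all but Fn1. Il2ra, for example, was low after TBI at 0.406 ± 0.189 FPKM (SD, n = 3) against a DEIX effect without irradiation of -1.82 on the log2 scale. TBI+DEIX lay above TBI in every library for 9 of the called genes, overlapped TBI for 12 and lay below it for Fn1. It was below control in every library for 17 genes and overlapped control for C1qa, C1qb, C1qc, Cd5l and Spic. The same values chose these genes, and the share of all genes with such separation was not counted, so these counts are a description.

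The genes that respond to type I interferon were examined as a list of 31 tested genes. All 31 interactions were positive, with a median of 1.66 against -0.02 over all genes, 17 had an unadjusted p under 0.05, and none was called. The list median was -1.39 for the DEIX effect in unirradiated mice, where 6 members were called lower (2.72% of all genes), and 0.30 for that in irradiated mice, where none was called. The count of 6 was 1 without any single control or DEIX library, 2 without TBI replicate 2 and 12 without TBI+DEIX replicate 3. The share of all genes called lower in those fits also changed, to between 0.691% and 1.02% without a control library or DEIX replicate 1 or 3, 3.05% without DEIX replicate 2, 1.74% without TBI replicate 2 and 2.63% without TBI+DEIX replicate 3. The list score, a library's mean over these genes of log2(FPKM + 1) centred on the gene's mean over all libraries, was 0.99, 1.23 and 1.09 in control and -0.39, -0.66 and -0.03 in DEIX. It was -0.52, -0.38 and -0.62 in TBI and -1.83, 0.26 and 0.87 in TBI+DEIX. The TBI+DEIX libraries thus spread widely, with replicate 1 the lowest library of all and replicates 2 and 3 above every TBI and DEIX library.

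Ifi27l2a and Cmpk2 were among the 3 most abundant genes of this list. Ifi27l2a, a small mitochondrial protein induced by interferon, was at 626, 766 and 735 FPKM in control, 52.8, 130.2 and 66.4 FPKM in TBI, 2.62, 158 and 302 FPKM in TBI+DEIX and 74.5, 55.1 and 93.6 FPKM in DEIX. Cmpk2, a nucleotide kinase induced by interferon, was at 59.4, 65.4 and 61.6 FPKM in control, 42.0, 35.3 and 33.9 FPKM in TBI, 16.1, 52.2 and 69.3 FPKM in TBI+DEIX and 31.5, 30.7 and 40.5 FPKM in DEIX. For both genes, TBI+DEIX replicate 1 was the lowest library and replicates 2 and 3 were above all TBI and DEIX libraries. The interactions were 2.78 (SE 1.73, adjusted p = 0.848) for Ifi27l2a and 0.93 (SE 0.55, adjusted p = 0.821) for Cmpk2.

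Without TBI+DEIX replicate 1, the interaction was called for 331 genes (3.01%), 282 positive (2.57%) and 49 negative (0.446%), and the 22 genes named above were among them. Of the 31 interferon genes, 29 were then called, all positive, and the list median was 2.61. The exceptions, named after their values were seen, were Ifit2 (adjusted p = 0.0523) and Mx1 (adjusted p = 0.0656). The values were 4.75 (adjusted p = 0.000859) for Ifi27l2a and 1.54 (adjusted p = 0.00287) for Cmpk2. In the same fit, 24 members were called higher with DEIX in irradiated mice (16.2% of all genes) and 30 lower with DEIX in unirradiated mice (8.48%). No member was called in the interaction without TBI+DEIX replicate 2 or without replicate 3. The calls for these genes thus depend on this 1 library, and why it stood apart was not tested.

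Genes of class I antigen presentation were also on the positive side. All 16 class I and immunoproteasome genes had a positive interaction, with a median of 0.70 that was 1.26 without TBI+DEIX replicate 1 and 0.46 without replicate 3. Of them, 7 had an unadjusted p under 0.05 and 1 (H2-Q4) was called, against 12 without TBI+DEIX replicate 1. The most abundant were B2m, H2-D1 and H2-K1, the light chain and classical heavy chains of class I. H2-K1 was at 499, 633 and 613 FPKM in control, 213, 255 and 232 FPKM in TBI, 195, 346 and 484 FPKM in TBI+DEIX and 286, 282 and 278 FPKM in DEIX. TBI+DEIX replicate 1 was below the TBI libraries, and replicates 2 and 3 were above the TBI and DEIX libraries. Its interaction was 1.49 (SE 0.37, adjusted p = 0.177), that of H2-D1 0.96 (SE 0.33, adjusted p = 0.485) and that of B2m 0.60 (SE 0.69, adjusted p = 0.992), none of them called, and without TBI+DEIX replicate 1 they were 1.85 (adjusted p = 0.00126), 1.26 (adjusted p = 0.0038) and 1.34 (adjusted p = 0.0188).

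T and NK cell genes numbered 21, all with a positive interaction and a median of 0.75. None was called, 12 had an unadjusted p under 0.05, and 12 were called without TBI+DEIX replicate 1. Among the most abundant members, Gzma, a granzyme of killer cells, was at 16.5, 23.1 and 14.0 FPKM in control, 3.73, 4.21 and 2.54 FPKM in TBI, 3.26, 6.51 and 3.81 FPKM in TBI+DEIX and 2.59, 6.73 and 5.25 FPKM in DEIX. Control was above all other libraries, which overlapped. With all libraries, Gzma had an interaction of 2.00 (SE 0.43, adjusted p = 0.116), Ccl5, a chemokine of T and NK cells, 1.23 (SE 0.61, adjusted p = 0.738), and Il2rb, a receptor chain for interleukins 2 and 15, 0.67 (SE 0.28, adjusted p = 0.596). Without TBI+DEIX replicate 1 the values were 2.17 (adjusted p = 0.0239), 1.79 (adjusted p = 0.0414) and 0.88 (adjusted p = 0.0555). The summed level of the list was 135 to 186 FPKM in control, 50.4 to 79.4 in TBI, 47.4 to 120.5 in TBI+DEIX and 74.4 to 119.5 in DEIX.

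B lineage genes had a positive interaction in 25 of 26 members, with a median of 1.14. None was called, 7 had an unadjusted p under 0.05, and 4 were called without TBI+DEIX replicate 1. The list median of the DEIX effect was -2.18 without irradiation, where 9 members were called lower (2.72% of all genes), and -0.94 with irradiation, where none was called. In irradiated mice, 7 members were called lower without TBI replicate 1 (3.04% of all genes) and 2 without TBI+DEIX replicate 2 (3.94%). Without TBI+DEIX replicate 1, 2 members were called higher there, against 16.2% of all genes. The count of 9 in unirradiated mice was 2 without control replicate 1, control replicate 3 or DEIX replicate 1, 3 without control replicate 2 or DEIX replicate 3, 4 without TBI replicate 2, 17 without TBI replicate 1 and 22 without TBI+DEIX replicate 1. The shares of all genes were those given for interferon genes, with 3.27% without TBI replicate 1 and 8.48% without TBI+DEIX replicate 1. Vpreb3, which assembles with the pre-B cell receptor, was at 125, 130.4 and 168 FPKM in control, 3.35, 67.1 and 62.1 FPKM in TBI, 0.699, 46.9 and 15.9 FPKM in TBI+DEIX and 8.12, 7.78 and 11.2 FPKM in DEIX. The irradiated groups spread widely and overlapped, and the interaction was 2.57 (SE 1.65, adjusted p = 0.861). Cr2 and Fcmr were listed at 0 in at least 1 library. Leaving out TBI replicate 1 gave a list median of the interaction of 0.41, and leaving out TBI+DEIX replicate 1 or 2 gave 1.84 or 0.55.

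Erythroid genes lay on the negative side. Of 29, 28 had a negative interaction, with a median of -1.27, which was -0.26 with array weights per library and -0.75 without DEIX replicate 2. None was called, and 8 had an unadjusted p under 0.05. DEIX was called lower in irradiated mice for 13 of them (3.41% of all genes) and in unirradiated mice for none. The count of 13 was 0 without control replicate 2, TBI replicate 1, TBI replicate 3 or TBI+DEIX replicate 3, and 2, 4 and 7 without control replicate 1, control replicate 3 and DEIX replicate 3, while it was 21 without TBI+DEIX replicate 2 and 23 without DEIX replicate 2. Calls over all genes shifted with them. None of the 10994 genes was called lower without TBI replicate 3, and 0.0455% were without TBI+DEIX replicate 3, 1.09% without control replicate 2, 1.5% and 1.74% without control replicates 1 and 3, 3.04% without TBI replicate 1, 2.27% without DEIX replicate 3, 3.94% without TBI+DEIX replicate 2 and 4.64% without DEIX replicate 2. Without DEIX replicate 2, 5 members were also called lower in unirradiated mice (3.05% of all genes). Hba-a1, an alpha globin whose near-identical copy Hba-a2 shares its reads, was at 1879.5, 1792 and 3146 FPKM in control, 4074, 866 and 1922 FPKM in TBI, 75.4, 777 and 203 FPKM in TBI+DEIX and 867, 3898 and 708 FPKM in DEIX. The TBI+DEIX libraries were below all TBI libraries, and DEIX libraries spread over the range of both. Its interaction was -2.33 (SE 1.22, adjusted p = 0.764), and that of Hbb-bs, a beta globin, -2.57 (SE 1.43, adjusted p = 0.787). The summed level of the list was 5902 to 8933 FPKM in control, 3248 to 13620 in TBI, 703.6 to 2832 in TBI+DEIX and 2411 to 12710 in DEIX. The 13 haem synthesis genes, which serve the same cells, were all negative, with a median of -0.93 (-0.18 with array weights per library, -0.52 without DEIX replicate 2), 2 at an unadjusted p under 0.05 and none called.

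DNA replication genes had smaller values of 1 sign. All 35 had a negative interaction, with a median of -0.39 (-0.17 with array weights per library), 10 at an unadjusted p under 0.05 and none called. DEIX was called lower in irradiated mice for 22 of them (3.41% of all genes) and in unirradiated mice for none. The count of 22 was 0 without TBI replicate 3 or TBI+DEIX replicate 3, 12 without TBI replicate 2 or control replicate 2, and 33 without TBI+DEIX replicate 1. Of all genes, 1.91% were called lower without TBI replicate 2 and 9.59% without TBI+DEIX replicate 1, and the counts of 0 came from fits with few or no calls over all genes. In unirradiated mice 3 members were called lower without TBI+DEIX replicate 1, against 8.48% of all genes. Without TBI replicate 3 or DEIX replicate 2, 1 member was called lower there, against 2.66% and 3.05% of all genes. Pcna, the sliding clamp of DNA polymerases, was at 257, 251 and 250.2 FPKM in control, 251, 242 and 312 FPKM in TBI, 124, 187 and 161 FPKM in TBI+DEIX and 195, 234 and 169 FPKM in DEIX. Each TBI+DEIX library was below each TBI library. The interaction of Pcna was -0.43 (SE 0.24, adjusted p = 0.792), with that of Rrm2, a subunit of ribonucleotide reductase, at -0.52 (SE 0.20, adjusted p = 0.569). All 23 mitotic genes of the proliferation list were negative too, with a median of -0.29 (-0.43 without TBI+DEIX replicate 1), and none was called.

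**Figure D4:**
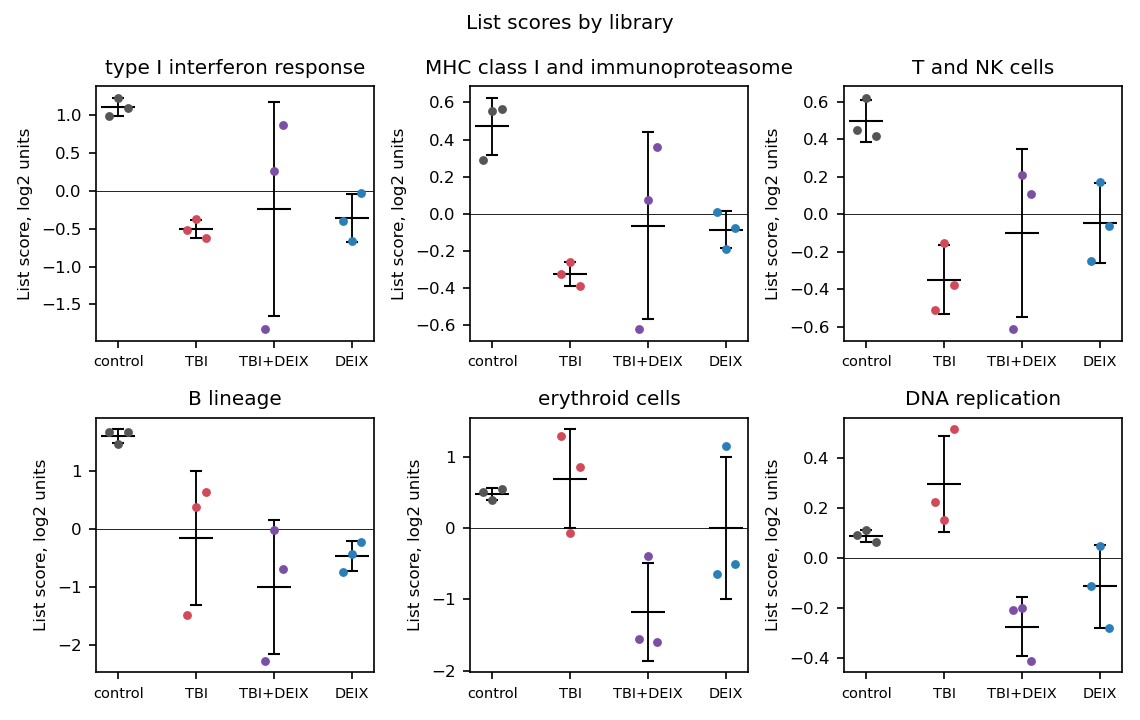
Scores of 6 gene lists by group (y axis, mean over the list of log2(FPKM + 1) centred on each gene's mean over the 12 libraries). Points are libraries in replicate order from left to right, horizontal marks are means and bars are SD over 3 libraries; TBI+DEIX replicate 1 is the lowest library in the type I interferon, class I, T and NK cell and B lineage panels, and all TBI+DEIX libraries lie below the TBI libraries for erythroid cells and DNA replication.

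The lists of immediate early genes and of inflammatory cytokine genes were also mostly positive. Immediate early genes, which are switched on within minutes of a stimulus, had a median of 0.39 (0.23 without control replicate 3), with 16 of 18 positive. Of them, 6 were at an unadjusted p under 0.05 and none was called, against 5 called without TBI+DEIX replicate 1. Their member Klf2, a transcription factor of lymphocytes and endothelium, was at 70.4, 74.3 and 96.5 FPKM in control, 56.6, 50.7 and 50.9 FPKM in TBI, 110.5, 99.7 and 99.3 FPKM in TBI+DEIX and 76.4, 96.3 and 78.7 FPKM in DEIX. TBI was the lowest and TBI+DEIX the highest group, with a DEIX effect in irradiated mice of 0.96 (SE 0.13, adjusted p = 0.0108). The call of this effect was lost without TBI replicate 3. The interaction of Klf2 was 0.89 (SE 0.19, adjusted p = 0.115), and 0.84 (adjusted p = 0.0392) without TBI+DEIX replicate 1. Inflammatory cytokine genes had a median of 0.55 (0.16 among those with a mean FPKM of at least 5), with 13 of 14 positive, 4 at an unadjusted p under 0.05 and none called, against 3 without TBI+DEIX replicate 1. Il1b, the gene of interleukin 1 beta, was at 70.3, 80.4 and 82.9 FPKM in control, 28.5, 35.3 and 28.3 FPKM in TBI, 6.87, 79.2 and 59.5 FPKM in TBI+DEIX and 19.6, 45.4 and 38.8 FPKM in DEIX, and TBI+DEIX replicate 1 was again the lowest library. Its interaction was 1.32 (SE 0.96, adjusted p = 0.898) and, without that library, 2.37 (adjusted p = 0.00649).

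Lists tied to carotenoids and to radiation had small medians that varied with the libraries used. The 25 antioxidant and glutathione genes had a median interaction of -0.13, which was -0.01 without TBI+DEIX replicate 1, -0.26 without TBI+DEIX replicate 2 and -0.08 without DEIX replicate 1, with 7 positive, 18 negative, 1 at an unadjusted p under 0.05 in each direction and none called. The 10 tested genes of carotenoid and retinoid metabolism had a median of -0.13, which was -0.01 without TBI+DEIX replicate 1, -0.19 without TBI+DEIX replicate 2 and -0.08 without DEIX replicate 3, with Scarb1 at an unadjusted p under 0.05 and none called, against 1, Scarb1, without TBI+DEIX replicate 1. The 25 p53 target genes, the transcriptional programme of DNA damage, had a median of 0.12 (0.05 with a common FPKM sum taken without S100a8, S100a9 and Ngp), with 21 positive, 1 at an unadjusted p under 0.05 and none called, against 3 without TBI+DEIX replicate 1. Ribosomal protein genes had a median of 0.02 over 58 members and oxidative phosphorylation genes of 0.01 over 41, with no member of either at an unadjusted p under 0.05 or called. Neither median had a stable sign: that of ribosomal protein genes ran from -0.11 without TBI+DEIX replicate 3 to 0.28 without replicate 1, and was 0.33 with array weights per library, and that of oxidative phosphorylation genes ran from -0.08 to 0.11 without the same libraries.

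**Figure D5:**
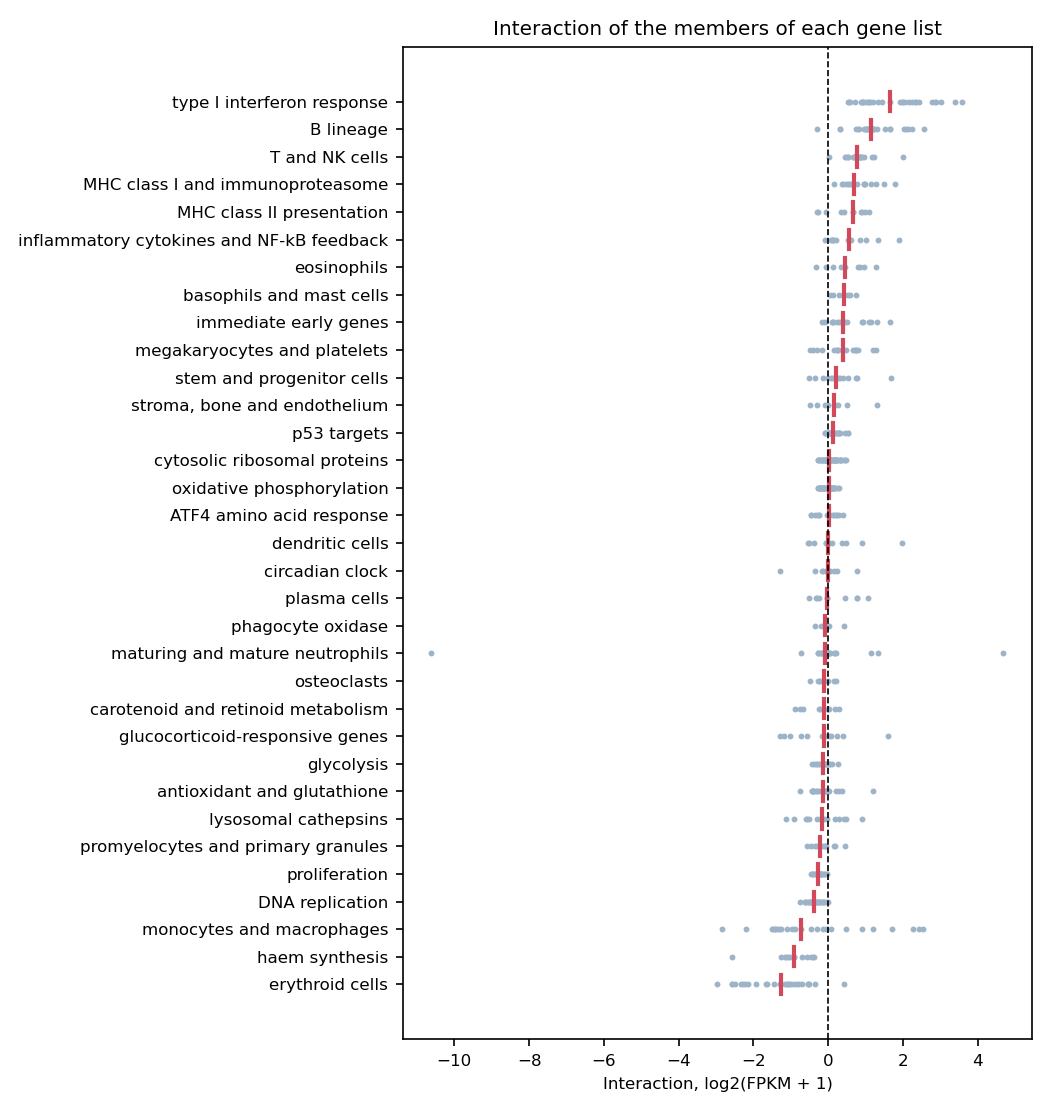
Interaction of each tested member of the 33 gene lists (points, log2(FPKM + 1) scale) and the list medians (red marks), with the lists sorted by median and the dashed line at the median of all genes. The type I interferon list has the highest median at 1.66 and the erythroid list the lowest at -1.27; the far points of the neutrophil list are S100a8, S100a9 and Ngp, which are listed at 0 in some libraries.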

How the data were processed

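Whole bone marrow libraries of 4 groups with 3 replicates each were analysed from 1 table of FPKM, which the authors deposited for 21853 genes. Per the labels' protocols, libraries were made with a directional MGI kit, and the submitters' processing notes name STAR 2.6, Cufflinks 2.2.1 and the mm10 build, with no role or order. The annotation is not given in the sources used here. All 21853 identifiers matched protein-coding genes of GENCODE vM21 (GRCm38), the source of symbols and coordinates, and promoter windows are from RefSeq (GRCm38.p6). The interferon response element was planned with 10 letters and searched by the first 9 of them.

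FPKM are not counts, and no count test was applied. Low values stepped in whole reads, and the FPKM worth of 1 read, relative to control replicate 1, was clear for 7 libraries, from 0.895 in TBI replicate 2 to 1.51 in TBI+DEIX replicate 2. It was unclear for control replicate 3, TBI+DEIX replicates 1 and 3 and DEIX replicate 1. Total reads are unknown. S100a8, S100a9 and Ngp are listed at 0 in some libraries and stayed in the tests.

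Genes with at least 1 FPKM in at least 3 libraries were fitted as log2(FPKM + 1), a pseudocount of 1, with limma 3.58.1 in R 4.3.3 (4 group means, eBayes with a mean-variance trend, 8 residual degrees of freedom) with Benjamini-Hochberg adjustment over all tested genes and a threshold of 0.05. The contrasts were checked on simulated data. Named genes were the 12 largest called interactions in each direction with a mean of at least 5 FPKM in the highest group, with free places filled by the smallest p, and of each list its called members and its 3 most abundant ones. Besides leaving out each of the 12 libraries, 14 alternatives were run, among them other pseudocounts, filters, scalings, weights and a replicate block. The replicate numbers in the labels did not pair the libraries. The 33 gene lists, the named contrast and the rules were chosen with earlier results of these data known. Symbols listed but absent from the table (Ahsp, Azu1, Trbc2, Mx2 and Ifi30) were not analysed here.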

Additional observations from a re-analysis of the deposited data

Results flagged for a closer look

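The effect of DEIX differed between irradiated and unirradiated mice, by the interaction test in limma with Benjamini-Hochberg adjustment, for 22 genes. Each value below is that difference of differences on the log2(FPKM + 1) scale. No gavage or vehicle is stated for control mice, so these values cannot be told apart from an effect of dosing.

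For genes of tissue macrophages it was 2.52 for C1qa, 2.51 for Spic, 2.43 for C1qb, 2.27 for C1qc and 2.2 for Cd5l, and for fibronectin it was -2.20 for Fn1. For class I and interferon-linked genes it was 2.79 for H2-Q6, 2.21 for Tgtp2, 1.79 for H2-Q4, 1.63 for Lgals3bp, 1.52 for Socs1 and 1.33 for Oas1c. For receptors and other immune genes it was 2.07 for Il2ra, 1.30 for Il4i1, 1.19 for Ctla2a and 1.00 for Il21r. For genes low in all groups other than control it was 1.5 for Srpk3, 1.39 for Col5a3, 1.28 for Nuak1, 1.27 for Rapgefl1, 1.23 for Klhl14 and 1.16 for Myo1e. These 6 genes, Il2ra and Il4i1 were tested only because control was high, their positive sign was fixed by the low level of the other groups, and their values are a description. The sign of Tgtp2 was likewise fixed. H2-Q6, C1qb and Socs1 were called in every alternative that tested them, and 8 of the 22 lost their call in 10 or more alternatives.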

How the results depend on the processing

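The interaction was called for 22 genes, and for 11 at a pseudocount of 0.1, 37 with no filter on low values, 7 at a mean of at least 5 FPKM, 38 after quantile normalization and 1148 with array weights per library, whose estimation did not reach its convergence tolerance. Leaving out each library in turn gave 4 (without TBI replicate 2) to 331 (without TBI+DEIX replicate 1). The other alternatives gave 18 to 30.

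The DEIX effect in irradiated mice was called for 891 genes, and for 157 with a common FPKM sum, 492 with that sum taken without S100a8, S100a9 and Ngp, 5532 with array weights per library, 8 with array weights per group, and 5 (without TBI replicate 3) to 2836 (without TBI+DEIX replicate 1) with a library left out. The DEIX effect in unirradiated mice was called for 796, and for 282, 419, 5249 and 2482 under the same 4 settings, and 146 (without control replicate 2) to 2394 (without TBI+DEIX replicate 1) with a library left out.

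With the replicate number as a block, 20 genes were called in the interaction, 474 in irradiated and 640 in unirradiated mice. Same-numbered libraries of different groups deviated with a median r of -0.07 (18 pairs, -0.45 to 0.24, 3 over 0.1), 2 of 12 libraries matched best with their own number, and the block is only an alternative.

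The 22 called genes kept their sign in every alternative that tested them. Among uncalled list members, Lyz2 (-0.90) was at 0.090 and Ly6c2 (-0.06) at 0.44 with array weights per library, and Ly6c2 was at 0.55 on the square root scale. With a library left out, Lyz2 ran from -1.51 to 0.31 and Ly6c2 from -0.47 to 0.54, each highest without TBI+DEIX replicate 1, and Il1r2 (0.39) ran from -0.13 without it to 0.65. Of the values of named genes, 1226 stayed on their side of the threshold, 171 lost a call, 64 gained one and 8 changed sign. Of the list medians, 782 moved by less than the spread between replicates and 43 by more; the square root scale was not run for them. Total reads are unknown, so no limit from depth can be given for genes near 0. Where calls changed, the cause was not tested.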

Other observations

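Genes induced by glucocorticoids, the adrenal steroid hormones, were examined as a list of 12. Their median DEIX effect was 0.45 on the log2(FPKM + 1) scale in irradiated mice, where 1 was called higher (4.69% of all genes), and 0.70 in unirradiated mice, where 3 were called higher (4.52% of all genes). Their median interaction was -0.13, which ran from -0.32 to 0.19 with a library left out (DEIX replicate 3 and DEIX replicate 2) and was -0.65 among members with a mean FPKM of at least 5, with 5 positive and 7 negative values and none called, against 2 called negative without TBI+DEIX replicate 1. Il1r2, the decoy receptor of interleukin 1, averaged 34.7 ± 1.66 FPKM in control, 121 ± 22.4 in DEIX, 38.0 ± 8.56 in TBI and 195 ± 133 in TBI+DEIX (SD, n = 3). It rose with DEIX in irradiated mice by 2.15 (limma, adjusted p = 0.0146) and in unirradiated mice by 1.76 (limma, adjusted p = 0.0168), with an interaction of 0.39 (SE 0.49, adjusted p = 0.999), or -0.13 without TBI+DEIX replicate 1. Fkbp5, a co-chaperone of the glucocorticoid receptor, averaged 20.8 ± 0.755 FPKM in control and 59.8 ± 11.9 in DEIX, a rise of 1.46 (limma, adjusted p = 0.0258). In irradiated mice it averaged 25.6 ± 3.40 FPKM with vehicle and 55.1 ± 36.2 with DEIX, and its interaction was -0.56 (SE 0.46, adjusted p = 0.925), against -1.05 (limma, adjusted p = 0.0165) without TBI+DEIX replicate 1.

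Other marrow cells were represented by shorter lists, none of whose members was called in the interaction with all libraries. The 9 eosinophil genes had a median of 0.45 (0.67 without TBI replicate 2, 0.68 without TBI+DEIX replicate 1, 0.24 at a mean FPKM of at least 5), with 4 at an unadjusted p under 0.05, and 1 was called without TBI+DEIX replicate 1. Among them Prg2, the major basic protein of eosinophil granules, fell with DEIX from 71.4 ± 9.79 FPKM in control to 39.3 ± 1.23, by 0.84 on the log2 scale (SD, n = 3; limma, adjusted p = 0.00927). Its means were 53.9 FPKM in TBI and 52.0 in TBI+DEIX, and its interaction was 0.79 (SE 0.20, adjusted p = 0.203). The 19 megakaryocyte and platelet genes had a median of 0.39 (0.21 without control replicate 1, 0.18 with array weights per library), with 15 positive and 4 at an unadjusted p under 0.05. The 11 genes of class II antigen presentation had a median of 0.65 (0.29 without TBI replicate 1, 0.21 without TBI+DEIX replicate 2, 0.42 without DEIX replicate 1), with 8 positive and none at an unadjusted p under 0.05, and 1 was called without TBI+DEIX replicate 1. Cd74, the invariant chain, had an interaction of 1.09 (SE 0.75, adjusted p = 0.879), and of 1.90 (limma, adjusted p = 0.00649) without TBI+DEIX replicate 1.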
